A study of Mus musculus with 2 samples.

Results

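The mitochondrial genome of the mouse encodes 37 genes, and all 37 were listed among the 43346 annotated genes of the mm10 gene tables. They were chosen by position on chromosome M and by symbols that begin with mt-, and comprise 13 messenger RNAs, 2 ribosomal RNAs and 22 transfer RNAs. The data came from embryonic day 14.5 whole brains of the C57BL/6J strain, sequenced from both fragment ends in 2 strand-specific libraries. The RNA was poly(A)-selected, depleted of rRNA and over 200 nt in size. Both libraries, numbered by the labels as biological replicates 2 and 1, belong to 1 group of littermates of both sexes, for which no treatment or transgene is named, so the comparisons are between genes and between the 2 libraries. The labels do not tie embryos to libraries, so the spread between the 2 may be technical, and with 1 library against 1 no test was made.

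Mitochondrial DNA is a small circle that is transcribed from both strands into long precursor RNAs. In most places the tRNAs lie between the rRNAs and messages, and cutting them out releases the other RNAs. Most of these receive short poly(A) tails. The messages encode core subunits of respiratory complexes I, III and IV and of ATP synthase (complex V), and the rRNAs and tRNAs serve only the translation of these messages inside the organelle. All other subunits are encoded in the nucleus, and developing neurons draw on both sets for oxidative phosphorylation.

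The expected counts, which are estimated fragments per gene, summed to 97539730 on annotated genes in replicate 2 and to 103493289 in replicate 1. Neuron markers were present, with 7 of 7 at 1 TPM or more in both libraries, as were neural progenitor markers, with 6 of 6. TPM, a length-normalised share of all transcripts, divides a gene's counts by its effective length, the number of positions at which a fragment of the library's length can start. The summed TPM was 12063 in replicate 2 and 9948.0 in replicate 1 over 10 erythroid markers, 17.2 in replicate 2 and 20.6 in replicate 1 over 7 skeletal muscle markers, and 9.37 in replicate 2 and 15.6 in replicate 1 over 5 heart muscle markers. Of the 6 liver markers Ttr, which the choroid plexus also makes, made up 1336 TPM in replicate 2 and 994 TPM in replicate 1, while the other 5 had 0 to 5.18 TPM in each library.

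The members whose values turned on sequence are shown here, from GENCODE vM21 transcripts on GRCm38, 5′ to 3′. mt-Atp8, at chrM:7766-7969 on the plus strand, is the shortest message, and its last 43 bases, in capitals, are also the first bases of mt-Atp6. mt-Nd4l, at chrM:9877-10173 on the plus strand, is given because a gene copy on chromosome 1 holds all of it but the last 3 bases, in capitals. mt-Ts2 (chrM:11613-11671) and mt-Tl1 (chrM:2676-2750), both on the plus strand, are the shortest and the longest of the tRNAs.
mt-Atp8: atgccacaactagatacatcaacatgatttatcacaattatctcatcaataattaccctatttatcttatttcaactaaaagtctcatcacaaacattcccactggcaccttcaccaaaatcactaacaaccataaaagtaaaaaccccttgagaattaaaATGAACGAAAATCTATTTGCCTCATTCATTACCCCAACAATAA
mt-Nd4l: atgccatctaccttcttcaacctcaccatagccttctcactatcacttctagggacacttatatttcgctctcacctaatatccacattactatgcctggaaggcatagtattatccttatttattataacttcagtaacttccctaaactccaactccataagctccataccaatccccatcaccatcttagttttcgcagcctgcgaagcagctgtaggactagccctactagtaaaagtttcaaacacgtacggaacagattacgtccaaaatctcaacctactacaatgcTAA
mt-Ts2: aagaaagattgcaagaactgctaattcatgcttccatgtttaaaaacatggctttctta
mt-Tl1: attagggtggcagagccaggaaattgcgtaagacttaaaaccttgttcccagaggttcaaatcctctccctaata

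All 13 messages and both rRNAs had 1 TPM or more in both libraries, and none of the 22 tRNAs did, so that 15 of 37 genes (40.5%) passed, against 33.9% of all annotated genes. The median message reached 2812 TPM in replicate 2, against 2096 TPM in replicate 1, the 2 rRNAs had a mean of 1773 TPM in replicate 2, against 225 TPM in replicate 1, and every tRNA was listed at 0. In these poly(A)-selected and rRNA-depleted libraries the rRNAs overlapped the messages in level. mt-Rnr2 lay above 6 complex I messages in replicate 2 and above mt-Nd6 alone in replicate 1. The part of selection and depletion in these levels was not tested. By mean TPM, 4 of the 10 highest genes of the whole table were mitochondrial messages, namely mt-Atp8, mt-Co1, mt-Co3 and mt-Co2 at ranks 1, 7, 8 and 10. In this tissue RNA, fewer cells of a type and less RNA per cell cannot be told apart.

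**Figure D1:**
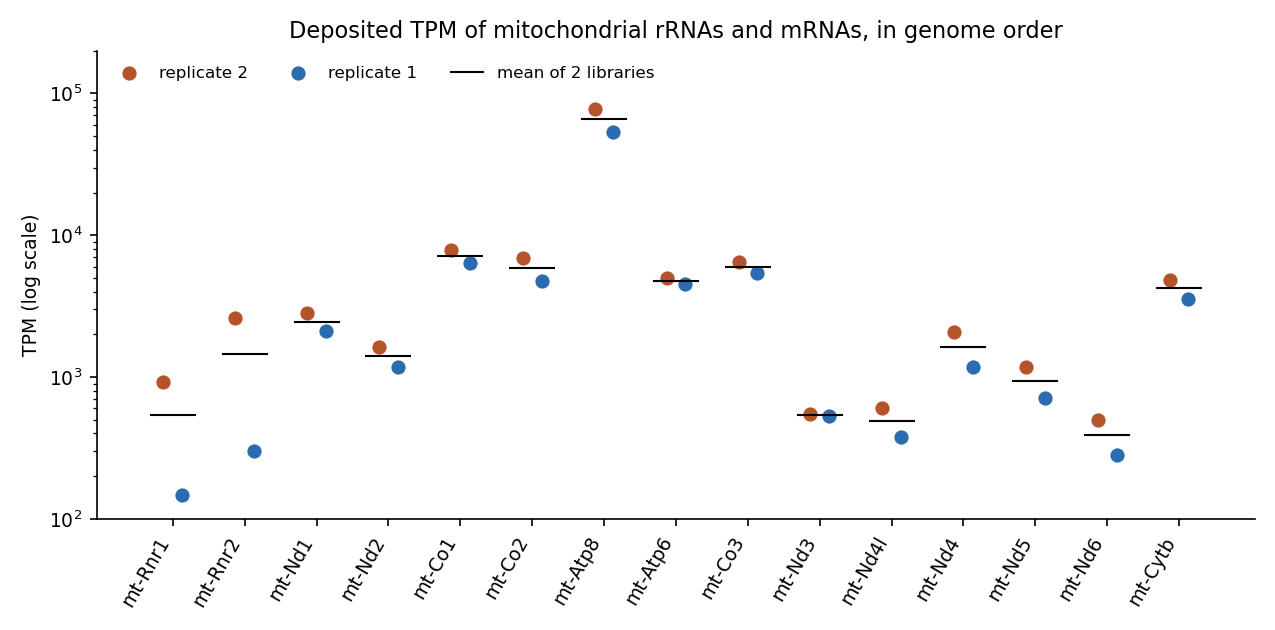
Deposited TPM (log axis) of the 2 rRNAs and 13 messages in genome order, with replicate 2 left of replicate 1 as points and the mean of the 2 libraries as a bar. mt-Atp8 stands above all others, the complex IV messages lie at 4756 to 7846 TPM, and the rRNA points of replicate 2 lie far above those of replicate 1.

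The 3 complex IV messages, which encode the catalytic core of cytochrome c oxidase, were high in both libraries. mt-Co1 had 7846 TPM in replicate 2 and 6407 TPM in replicate 1. mt-Co2 had 6903 TPM in replicate 2 and 4756 TPM in replicate 1. mt-Co3 had 6505 TPM in replicate 2 and 5387 TPM in replicate 1. Replicate 2 was the higher for each, and apart from mt-Atp8 no message exceeded mt-Co1 in either library. mt-Cytb, the cytochrome b message and the only mitochondrial one for complex III, had 4866 TPM in replicate 2 and 3562 TPM in replicate 1, or 4214 ± 922 TPM (SD, n = 2).

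The 7 complex I messages, for membrane subunits of NADH dehydrogenase, were lower and spread more widely. mt-Nd1 led with 2812 TPM in replicate 2 and 2096 TPM in replicate 1. In replicate 2 mt-Nd4 had 2089 TPM, against 1186 TPM in replicate 1, and mt-Nd2 had 1621 TPM in replicate 2 and 1183 TPM in replicate 1. mt-Nd5 had 1170.1 TPM in replicate 2 and 717 TPM in replicate 1. The 3 lowest messages were also of complex I. In replicate 2 mt-Nd3 had 550.5 TPM, against 535 TPM in replicate 1, and mt-Nd4l had 603 TPM in replicate 2 and 376 TPM in replicate 1. mt-Nd6, the only message on the minus strand (chrM:13552-14070), had 497 TPM in replicate 2 and 282 TPM in replicate 1. By deposited TPM no complex I message reached the level of any message of complexes III, IV or V in the same library. With the TPM of its nuclear copy added, as described for the copies, mt-Nd4l had 4972 TPM in replicate 2, above mt-Cytb at 4866 TPM.

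ATP synthase has 2 mitochondrial messages, for subunits of its membrane part, and they share 43 bases. mt-Atp6 had 5005 TPM in replicate 2 and 4530.4 TPM in replicate 1. mt-Atp8 had 77705 TPM in replicate 2 and 53458 TPM in replicate 1, or 65582 ± 17145 TPM (SD, n = 2), which made it the highest gene of the whole table. Its expected counts were 50091 in replicate 2 and 32854 in replicate 1, fewer than those of mt-Atp6, with 144705 in replicate 2 and 143069 in replicate 1.

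Length separated these readings. Above 1000 nt the effective length was typically 209 nt shorter than the annotated length in replicate 2 and 219 nt shorter in replicate 1. mt-Atp8 is 204 nt long, and its effective length was 10.5 nt in replicate 2 and 8.98 nt in replicate 1. The annotated length was thus 19.4 times the effective length in replicate 2 and 22.7 times in replicate 1. The next shortest messages had smaller ratios. For mt-Nd4l, of 297 nt, the ratio came to 3.33 in replicate 2, against 3.73 in replicate 1, and for mt-Nd3, of 348 nt, it was 2.50 in replicate 2 and 2.69 in replicate 1. For mt-Nd5, the longest message with 1824 nt, it was 1.13 in replicate 2 and 1.14 in replicate 1.

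TPM was therefore also recomputed from the same expected counts with the annotated length, here called full-length TPM. On that scale mt-Atp8 stood at 5284 in replicate 2 and 3080 in replicate 1, and its deposited TPM was 14.7 times that value in replicate 2 and 17.4 times in replicate 1. For the other 12 messages the same quotient lay between 0.857 and 2.53 in replicate 2 and between 0.869 and 2.85 in replicate 1. mt-Co1 then led, with 8946 in replicate 2 and 7191 in replicate 1, and mt-Atp8 was sixth of the 13 messages and rank 12 of all genes. Neither scale counts molecules directly: one rests on very few start positions, and the other assumes that fragments cover the ends of a transcript.

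**Figure D2:**
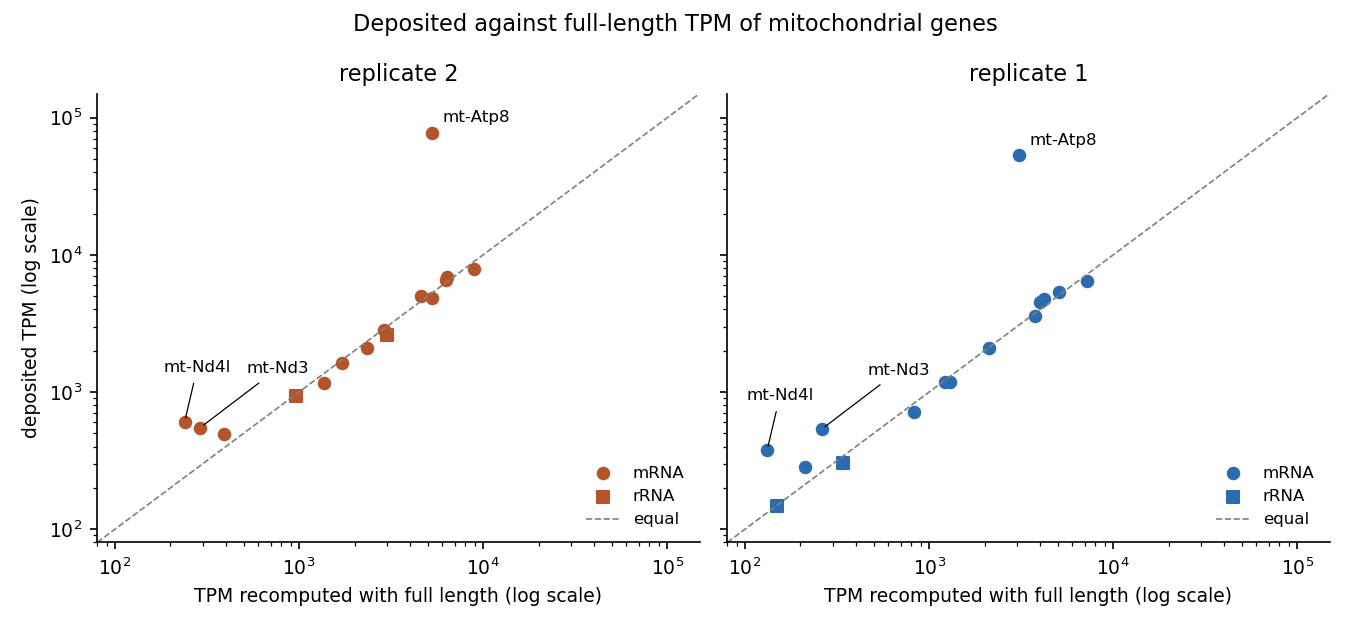
Deposited TPM against TPM recomputed with the annotated length, both on log axes, for the 13 messages (circles) and 2 rRNAs (squares), replicate 2 in the left panel and replicate 1 in the right. Most points lie near the dashed line of equality, mt-Nd4l and mt-Nd3 lie above it, and mt-Atp8 lies 14.7 times above it in replicate 2 and 17.4 times in replicate 1.

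The summed share of the 37 genes followed the scale. They took 2.36% of the expected counts of annotated genes in replicate 2 and 1.68% in replicate 1. By full-length TPM the share was 4.98% in replicate 2 and 3.39% in replicate 1, and by deposited TPM 12.2% in replicate 2 and 8.49% in replicate 1. mt-Atp8 alone made up 63.8% of the mitochondrial TPM in replicate 2, against 62.9% in replicate 1, but 2.18% of the mitochondrial counts in replicate 2 and 1.89% in replicate 1. Without it the other 36 genes held 4.40% of the TPM in replicate 2, against 3.15% in replicate 1. Among genes of 250 nt or shorter that had counts and an effective length above 0, mt-Atp8 held 91.7% of the TPM in replicate 2, against 92.7% in replicate 1.

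The tRNAs lay at the other end of the length range. The 22 genes are 59 to 75 nt long, and each had an effective length of 0, expected counts of 0 and a TPM of 0 in both libraries. The 3 shortest were mt-Ts2 with 59 nt, mt-Tk with 65 nt and mt-Tc with 66 nt, which carry serine, lysine and cysteine. mt-Tl1, for leucine, was the longest with 75 nt, ahead of mt-Tl2, mt-Tn and mt-Tq with 71 nt each. An effective length of 0 was given to 5355 annotated genes (12.4%) in each library, all of 142 nt or shorter, among them every one of the 2271 genes of up to 100 nt. The sequences of mt-Ts2 and mt-Tl1 above are shorter than the 200-nt limit of the RNA preparation, so a listed 0 is not a measurement of tRNA absence.

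The order of the messages was partly stable between the libraries. Neighbours in the order by mean TPM were called apart if their log2 ratio had 1 sign in both libraries and a mean larger than its SD, which held for 7 of 12 neighbouring pairs. mt-Atp8 stood apart from mt-Co1, and mt-Co1 from mt-Co3. mt-Co3 and mt-Co2 changed places between the libraries, with log2 ratios of -0.086 in replicate 2 and 0.18 in replicate 1. From mt-Co3 through mt-Co2 and mt-Atp6 to mt-Cytb no neighbours stood apart, nor did mt-Nd4 from mt-Nd2 or mt-Nd3 from mt-Nd4l. The step from mt-Cytb down to mt-Nd1, between complex III and complex I messages, was 0.79 in replicate 2 and 0.77 in replicate 1 on the log2 scale. By full-length TPM 8 of 12 neighbouring pairs stood apart.

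Some messages lie on joint RNAs, and these pairs were read side by side. mt-Atp8 and mt-Atp6 are carried on 1 joint RNA. By deposited TPM mt-Atp8 was 15.5 times mt-Atp6 in replicate 2 and 11.8 times in replicate 1. By full-length TPM the quotient was 1.16 in replicate 2 and 0.767 in replicate 1, on either side of equality, a mean log2 ratio of -0.087 ± 0.42 (SD, n = 2). That held without the nuclear copy of mt-Atp6. With the copy added, full-length mt-Atp6 was 7643 in replicate 2, above mt-Atp8 at 5284. In replicate 1 mt-Atp6 was then 6088, above mt-Atp8 at 3080. mt-Nd4l and mt-Nd4 also share an RNA and overlap by 7 bases, and here the shorter message was lower on both scales, a direction that turned on the TPM scale when nuclear copies were added. By full-length TPM mt-Nd4l was 0.102 times mt-Nd4 in replicate 2 and 0.101 times in replicate 1, and by deposited TPM 0.289 times in replicate 2 and 0.317 times in replicate 1.

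mt-Nd6 is read from the opposite strand to the 12 other messages and overlaps mt-Nd5 by 14 bases on the other strand. Its TPM was 0.129 times the median of those 12 in replicate 2 and 0.0996 times in replicate 1, a mean log2 ratio of -3.14 ± 0.27 (SD, n = 2). The RNA was poly(A)-selected, and the part of this selection in the mt-Nd6 level was not tested. The base composition of mt-Nd6 is the mirror of that of the other 12, with 28.1% G, against 5.88% to 16.1% G. The annotated ends of the messages also differed. Of the 13, 10 ended as annotated in a complete stop codon, while mt-Co3, mt-Nd4 and mt-Cytb ended in a lone T that polyadenylation completes to a stop. Of the complete stops, those of mt-Nd1 and mt-Nd2 overlap the next tRNA gene on the same strand. mt-Nd1 ends at base 3707 and mt-Ti starts at 3706, and mt-Nd2 ends at 4951 and mt-Tw starts at 4950.

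Copies of mitochondrial sequence in the nucleus bore on 7 of the messages. A block on chromosome 1, chr1:24611535-24616197 on the minus strand, holds 7 annotated unprocessed pseudogenes in the order of the mitochondrial genome, and 5 of them had no base that differed from their mitochondrial gene. Gm28661 matched mt-Co2 over 681 bases, Gm10925 matched mt-Atp6 over 678, Gm28437 matched mt-Co3 over 783, Gm10222 matched mt-Nd4l over 294 and Gm28439 matched the first 876 bases of mt-Nd4. The other two differed at their ends. Gm28438 differed from mt-Nd3 by 1 base of 345, T3C, counted from the first base of the gene with the mitochondrial base first. Gm29216 spanned 492 bases of mt-Co1 from its base 1054 to its end and differed by 6 bases, T1056A, C1057T, A1059G, A1060G, C1062A and A1066T.
The first 30 bases of each copy are set against the mitochondrial gene, with differing bases in capitals, mt-Nd3 at chrM:9459-9488 (plus), Gm28438 at chr1:24613090-24613119 (minus), mt-Co1 at chrM:6381-6410 (plus) and Gm29216 at chr1:24616168-24616197 (minus).
mt-Nd3: atTaacctgtacactgttatcttcattaat
Gm28438: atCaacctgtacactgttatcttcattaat
mt-Co1: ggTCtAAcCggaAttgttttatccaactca
Gm29216: ggATtGGcAggaTttgttttatccaactca

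The expected counts were divided between gene and copy very unequally. For mt-Nd4l the copy Gm10222 took 87.5% of the joint counts in replicate 2 and 88.7% in replicate 1. In counts, Gm10222 had 23057 in replicate 2 and 16107 in replicate 1, and mt-Nd4l had 3292 in replicate 2 and 2046 in replicate 1. For mt-Nd3 the copy Gm28438 took 74.9% in replicate 2 and 78.1% in replicate 1. The nuclear copy thus held most of the counts of the 2 shortest of the 7 messages, although the printed mt-Nd4l sequence and its copy are alike up to the last codon.

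For the longer messages the mitochondrial gene held most of the joint counts. The copy's part was 40.1% in replicate 2 and 33.9% in replicate 1 for mt-Atp6, and 35.3% in replicate 2 and 32.2% in replicate 1 for mt-Co3. It was 9.71% in replicate 2 and 17.5% in replicate 1 for mt-Co2, 11.95% in replicate 2 and 13.1% in replicate 1 for mt-Co1, and 0.0620% in replicate 2 and 0.0488% in replicate 1 for mt-Nd4. The 7 copies together took 21.1% of the joint counts in replicate 2 and 21.5% in replicate 1. Reads from identical stretches cannot be assigned to one place by sequence. The levels of mt-Co1, mt-Atp6, mt-Co3, mt-Nd3 and mt-Nd4l moved by more than the spread between the libraries when the copy's TPM was added. Those of mt-Co2 and mt-Nd4 did not. Each copy's TPM rests on its own effective length, 283 nt for Gm29216 against 1336 nt for mt-Co1 in replicate 2. Gm29216 thus made up 39.1% of the joint TPM in replicate 2 and 42.4% in replicate 1, far above its part of the joint counts. The mt-Co1 move is therefore not that of reassigned reads alone. Whether the chromosome 1 block is transcribed at all cannot be told apart from reads of mitochondrial origin in the 5 pairs with no differing base.

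**Figure D3:**
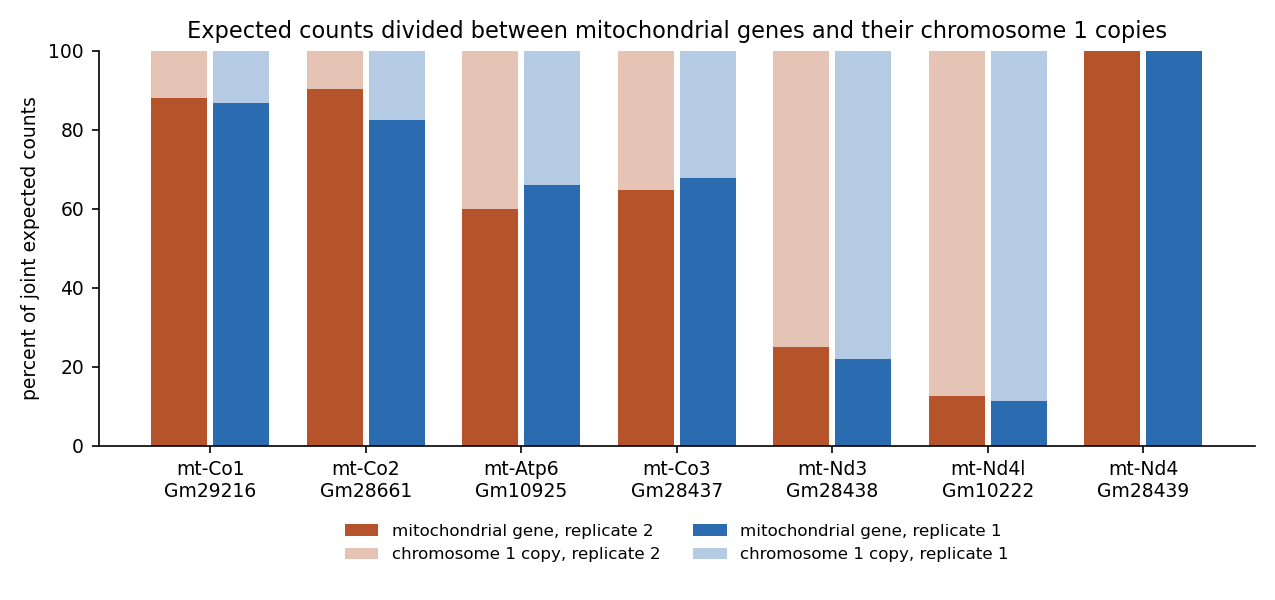
Percent of the joint expected counts given to the mitochondrial gene (solid) and to its chromosome 1 copy (pale), for 7 pairs in genome order, replicate 2 left of replicate 1 in each pair. The copy holds 74.9% to 88.7% of the joint counts for mt-Nd3 and mt-Nd4l and under 0.1% for mt-Nd4.

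The deposited posterior SD of the counts, a measure of how far the assignment could shift within 1 library, picked out the same 7 messages. It was above 1 in both libraries for those 7, and it was 0 in both libraries for 7 of the other 8 genes with counts and 0.08 in replicate 2 for mt-Nd2. For mt-Co3 it reached 42822 counts in replicate 2 and 35269 in replicate 1, which is 18.7% of the mt-Co3 count in replicate 2 and 17.0% in replicate 1. That was the largest share of the 7. The share was 11.4% for mt-Atp6, 11.1% for mt-Nd4l, 7.98% for mt-Nd3 and 2.84% for mt-Co2 in replicate 2, and 0.064% for mt-Co1 and 0.011% for mt-Nd4. Each copy's posterior SD equalled that of its gene within 0.1 counts in both libraries, in 7 of 7 pairs. The deposited TPM interval of mt-Co3 ran from 4209 to 7808 in replicate 2 and from 3439 to 6169 in replicate 1. For mt-Cytb, which has no such copy, it ran from 4795 to 4832 in replicate 2 and from 3512 to 3542 in replicate 1. These intervals describe 1 library each and are not limited to the assignment of reads, since mt-Cytb had a posterior SD of 0 in both libraries. They lie around the posterior mean. The deposited TPM lay above the upper bound for 9 of the 15 genes in replicate 2 and for 6 in replicate 1.

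Adding each copy's TPM to its gene moved the order. mt-Nd4l then stood at 4972 TPM in replicate 2, against 3448 TPM in replicate 1, seventh of the 13 messages in place of twelfth. mt-Nd3 then stood at 2231 TPM in replicate 2, against 2494 TPM in replicate 1. On the full-length scale with copies added, mt-Nd4l stood at 1926 in replicate 2 and 1179 in replicate 1, and mt-Nd4 at 2339 in replicate 2 and 1306 in replicate 1, so the joint-RNA pair stood much closer than without the copies. By TPM with copies added the direction turned, with mt-Nd4 at 2092 in replicate 2 and 1187 in replicate 1, below mt-Nd4l in both, and a mean log2 ratio of mt-Nd4l over mt-Nd4 of 1.39. This sum was chosen after the data were seen. It treats all reads of the block as mitochondrial, but divides each copy's counts by the copy's own length and not by that of the gene.

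All 13 messages were higher in replicate 2 than in replicate 1, and none by 2-fold, where 50.98% of the 15240 genes whose mean TPM was 1 or more were higher. The log2 ratio of TPM + 1, replicate 2 over replicate 1, had a median of 0.45 over the 13. It ran from 0.041 for mt-Nd3 to 0.82 for mt-Nd4, and scaled to spike-ins 1 message, mt-Nd6, passed 2-fold with 1.01. Over those 15240 genes the median was 0.012, with 2.39% at least 2-fold higher in replicate 2 and 1.14% at least 2-fold lower. The complex I messages spanned the whole range, with mt-Nd6 at 0.82, mt-Nd5 at 0.71 and mt-Nd4l at 0.68, against 0.29 for mt-Co1 and 0.27 for mt-Co3. With its copy added, mt-Nd3 was lower in replicate 2, at -0.16, while the 12 others remained higher.

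The rRNAs differed far more than the messages. mt-Rnr1, the small-subunit rRNA at chrM:70-1024, had 928 TPM in replicate 2, against 148 TPM in replicate 1, or 538 ± 552 TPM (SD, n = 2), with a log2 ratio of 2.64. mt-Rnr2, the large-subunit rRNA at chrM:1094-2675, had 2617 TPM in replicate 2, against 303 TPM in replicate 1, or 1460 ± 1636 TPM (SD, n = 2), with a log2 ratio of 3.11. In counts, mt-Rnr2 had 220120 in replicate 2 and 28237 in replicate 1, and mt-Rnr1 had 42424 in replicate 2 and 7437 in replicate 1. Both were past the 2-fold mark, which 2.39% of those 15240 genes passed in that direction. Neither rRNA has a copy with counts among the genes that share 51 or more bases in a row with it, and effective length differed between the libraries by under 0.02 on the log2 scale for both.

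The rRNAs held 11.4% of the mitochondrial counts in replicate 2 and 2.06% in replicate 1. Their mean TPM was 0.630 times the median message in replicate 2 and 0.108 times in replicate 1. mt-Rnr2 exceeded mt-Rnr1 in both libraries, 2.82 times in replicate 2 and 2.05 times in replicate 1. The libraries were depleted of rRNA, and nuclear genes listed here as rRNA-like were also higher in replicate 2. Gm42418 had 20469 TPM in replicate 2 and 2142 TPM in replicate 1, Gm26917 had 911 TPM in replicate 2, against 239 TPM in replicate 1, and Lars2, which encodes a mitochondrial leucyl-tRNA synthetase and carries an rRNA-like stretch, had 1096 TPM in replicate 2 and 285 TPM in replicate 1. Of the 4 measured genes of that list, 3 had a mean TPM of 1 or more. All 3 were at least 2-fold higher in replicate 2, against 2.39% of all 15240 genes at that level. Structural RNAs that are not rRNA differed little, with 5 of 7 listed above 0 and a median log2 ratio of 0.12. The part of rRNA depletion in the mt-Rnr1 and mt-Rnr2 values was not tested.

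**Figure D4:**
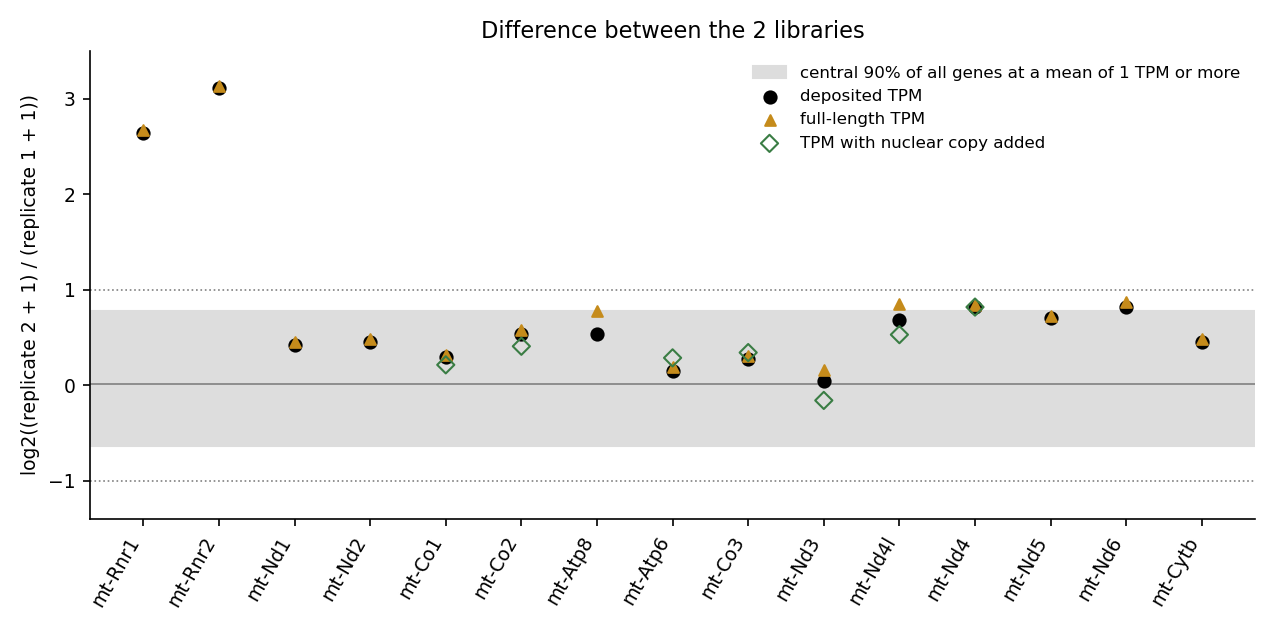
The log2 ratio of level + 1, replicate 2 over replicate 1, for the 2 rRNAs and 13 messages by deposited TPM (circles), full-length TPM (triangles) and, for 7 messages, TPM with the nuclear copy added (diamonds). The grey band holds the central 90% of the 15240 genes, dotted lines mark 2-fold, and the rRNAs stand at 2.64 and 3.11 while the messages by deposited TPM run from 0.041 to 0.82.

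Nuclear partner genes stood on the other side of equality. Of 69 nuclear subunits of complexes I, III, IV and V, each at 1 TPM or more in both libraries, 7 were higher and 62 lower in replicate 2, with a median log2 ratio of -0.37 and none 2-fold apart. Over all 15240 genes 50.98% were higher, and among nuclear genes of over 500 to 1000 nt, where the median subunit length of 729.9 nt lies, 29.9% were higher. By complex, 4 of 35 were higher and 31 lower in complex I, none was higher and 9 of 9 lower in complex III, none higher and 10 of 10 lower in complex IV, and 3 of 15 higher and 12 lower in complex V. The highest nuclear subunit of each complex was lower in replicate 2. Cox6a1 of complex IV had 830 TPM in replicate 2 and 1366 TPM in replicate 1, Atp5b, the catalytic subunit of ATP synthase, had 1225 TPM in replicate 2, against 1792 TPM in replicate 1, and Uqcr11 of complex III had 454 TPM in replicate 2 and 706 TPM in replicate 1. Ndufb8 of complex I had 330.3 TPM in replicate 2 and 467 TPM in replicate 1.

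In level the mitochondrial messages exceeded the nuclear subunits. The median message stood 13.6 times above the median nuclear subunit in replicate 2 and 7.61 times in replicate 1, and by full-length TPM 16.4 times in replicate 2 and 9.56 times in replicate 1. In replicate 2 the nuclear subunit median was 207 TPM, against 275 TPM in replicate 1. The highest nuclear subunit, Atp5b, had a mean of 1508 TPM, above the means of mt-Nd2, mt-Nd5, mt-Nd3, mt-Nd4l and mt-Nd6 and below those of the other 8 messages. With their nuclear copies added, mt-Nd3 had a mean of 2362 TPM and mt-Nd4l of 4210 TPM, both above Atp5b.

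Genes that make or handle mitochondrial RNA were low and slightly lower in replicate 2. Of 23 measured members, 3 were higher and 20 lower, with a median log2 ratio of -0.11, where 50.98% of all 15240 genes were higher. The RNA polymerase gene Polrmt had 47.8 TPM in replicate 2, against 67.3 TPM in replicate 1, and Tfam, which packages mitochondrial DNA and activates its promoters, had 15.5 TPM in replicate 2 and 15.9 TPM in replicate 1. Lrpprc, which stabilises mitochondrial messages, was one of the 3 on the other side, with 20.8 TPM in replicate 2 and 14.6 TPM in replicate 1. The highest member was the termination factor family gene Mterf3, with 59.6 TPM in replicate 2 and 91.0 TPM in replicate 1. Polrmt, Tfam and Lrpprc were named after their values were seen. Of 74 mitochondrial ribosomal protein genes, whose products bind the 2 rRNAs, 9 were higher and 65 lower, with a median of -0.28. The highest, Mrps33, had 189 TPM in replicate 2 and 273 TPM in replicate 1. Among all nuclear genes the share that was higher varied with length. It was 29.9% for those of over 500 to 1000 nt, 31.9% for over 1000 to 2000 nt and 62.5% over 2000 nt.

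**Figure D5:**
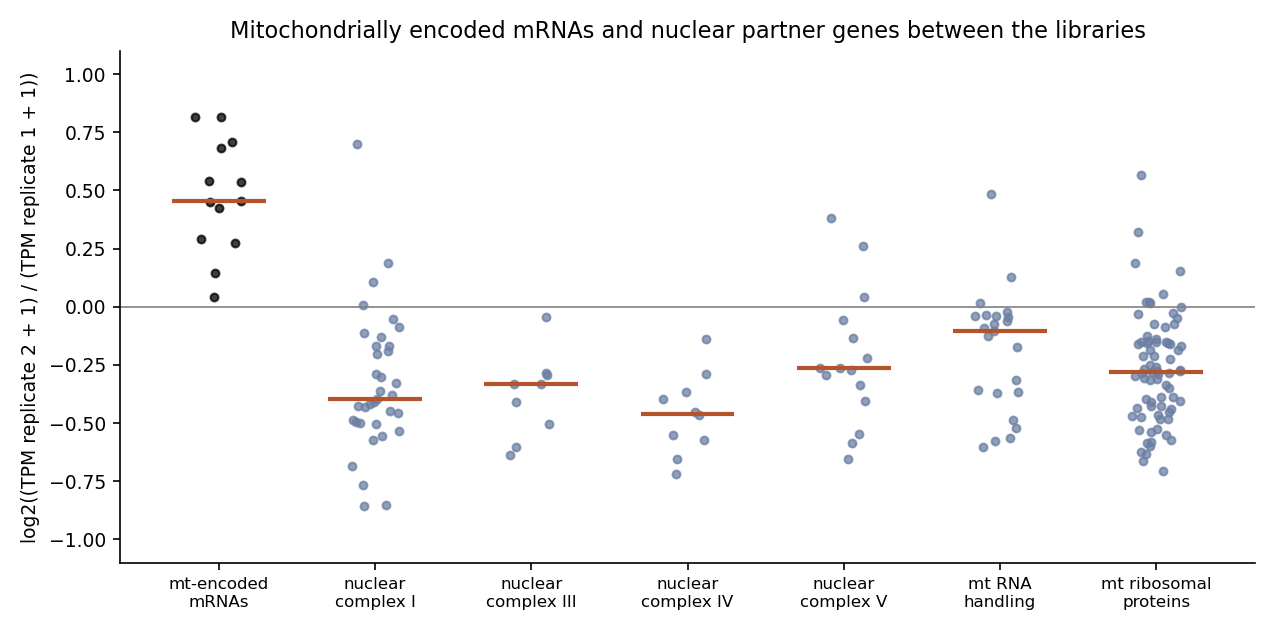
The log2 ratio of TPM + 1, replicate 2 over replicate 1, for each of the 13 mitochondrially encoded messages (left column) and for genes of 6 nuclear lists, with the median of each list as a bar. The messages have a median of 0.45, and the nuclear lists have medians of -0.11 to -0.46.

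Nuclear genes of different transcript lengths, and some cell type markers, also differed between the libraries. Nuclear genes of up to 500 nt had a median log2 ratio of 0.058 (505 genes), with 52.9% higher in replicate 2. Those of over 500 to 1000 nt had a median log2 ratio of -0.25 (1418 genes), those of over 1000 to 2000 nt -0.16 (4091 genes), and those over 2000 nt 0.11 (9211 genes). Of the 69 nuclear subunits, 52 were 1000 nt or shorter. The mitochondrial messages, of 204 to 1824 nt, were all higher in replicate 2. Among markers the median log2 ratio was 0.27 over 7 neuron genes (6 higher, 1 lower), -0.34 over 6 progenitor genes (2 higher, 4 lower) and 0.44 over the 8 of 10 erythroid genes whose mean TPM was 1 or more. Their part in the mitochondrial values was not tested.

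The older mm9 files read chromosome M in other ways. The mm9 gene table listed all 37 genes with the same positions, under the chromosome name chrMT, at an RPKM of 0 in both of its values, whereas the contig and junction tables, which name it chrM, held signal there. A contig is a stretch of continuous coverage, given with 1 signal value for both libraries together on an unstated scale. Chromosome M carried 7 plus-strand contigs over 15692 bases and 4 minus-strand contigs over 814 bases, of which 7 and 1 had a reproducibility value, low meaning reproducible, of 0.1 or less.

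The contig signal fell into high and low stretches. The contig from base 19 to 6943, over both rRNAs, mt-Nd1, mt-Nd2 and mt-Co1, had a signal of 885, and the one from 10405 to 16299, over most of mt-Nd4, mt-Nd5 and mt-Cytb, had 570.0. Between them, from base 7013 to 10361, 5 contigs over mt-Co2, mt-Atp8, mt-Atp6, mt-Co3, mt-Nd3, mt-Nd4l and the start of mt-Nd4 had signals of 0.088 to 0.255. All of these but mt-Atp8 have an annotated chromosome 1 copy, and the mm10 counts placed mt-Atp6, mt-Co2 and mt-Co3 among the higher messages. Copied sequence also lay inside the 2 high contigs: the last 492 bases of mt-Co1 in the first, and most of the copied part of mt-Nd4 in the second. Each contig has 1 signal value, so the signal over the copied bases themselves is not known. The part of the copies in the low stretch was not tested. The minus-strand contigs had signals of 0.018 to 0.197, and none overlapped mt-Nd6.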

How the data were processed

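The deposited expected counts are the authors' estimates of fragments per gene and transcript (GENCODE M4, mm10), as text notes beside the files state. No source used here names the tool. The deposited TPM and FPKM values use effective lengths, and TPM is scaled over all rows, spike-in RNA included. The deposited interval bounds and posterior SDs, treated as signal values, describe 1 library each. The deposited mm9 contigs carry a signal level and a reproducibility fraction, and the deposited junction read counts sum both replicates.

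Symbols and positions came from GENCODE vM21 on GRCm38 (42462 of 43346 identifiers matched); 97 spike-in rows and 26248 number-named rows, which held 0 counts, were kept out of gene totals. The transcript tables gave the same values for all 37 genes. Full-length TPM divides the expected counts by annotated length. Library differences are log2 ratios of TPM + 1, which understate differences of low genes, called at 2-fold among genes whose mean TPM was 1 or more, with no test, since each side is 1 library. Nuclear copies were found as genes that share 51 bases in a row with a mitochondrial gene. edgeR 4.0.16 (TMM) and DESeq2 1.42.0 (size factors) were used on rounded counts of 20211 genes for alternative scalings only. Python 3.11.15, numpy 2.4.6, pandas 2.3.3 and R 4.3.3 were used, and the steps were tested on simulated data. At these depths 3 counts correspond to 2.97e-06% of all counts in replicate 2 and 2.78e-06% in replicate 1, which covers counting error only.

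All 13 messages and both rRNAs were named. Named tRNAs were the shortest and longest, named partner genes the highest of each list, and named copies those with a mean of 100 or more counts, to which Gm28439 was added after its values were seen. The members and lists were chosen with earlier results of these data known. Fastkd4, Mrpl33, AY036118, Rn45s and Rn18s of the lists were not matched. Of 15 genes listed as nuclear copies, 9 shared 51 bases in a row; 4 of the 15 were listed at 0 in both libraries. The mm9 exon and transcript tables were not used here.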

Additional observations from a re-analysis of the deposited data

Results flagged for a closer look

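Splice junction reads were present on chromosome M, although mitochondrial genes have no introns, and none of the 1460 junctions listed there was tagged as annotated. They held 3814 reads over both libraries together, with 911 junctions at 1 read, 30 at 10 or more and 49 at a reproducibility value of 0.1 or less. The junction with most reads, 502, skipped 61 bases inside mt-Co1, from base 6458 to 6518 of chromosome M in mm9 on the plus strand. The next, with 185 reads, skipped 67 bases from 6451 to 6517. The following ones, with 83, 54 and 53 reads, lay inside mt-Cytb. The junction table is not used in the comparisons above and has no control sample, and how these reads arose was not tested.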

How the results depend on the processing

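With 1 library on each side, these values describe direction and size only. No paired analysis was possible because the 2 libraries form 1 group. The median of the 13 messages, 2454 TPM over both libraries, was 1516 as FPKM and 4157 TPM with nuclear copies added. The mean mitochondrial share of TPM, 10.3%, was 4.19% by full-length TPM and 3.77% without mt-Atp8. The mean log2 ratio of mt-Atp8 over mt-Atp6, 3.76, turned to -0.087 by full-length TPM, and that of mt-Nd4l over mt-Nd4, -1.73, turned to 1.39 with copies added; the log2 difference of mt-Nd3 between the libraries turned to -0.16 with copies added. Scaled to spike-ins, 1 message was 2-fold higher in replicate 2, against 0 otherwise, and the median of all genes lay at 0.18; relative to that median the messages stood at 0.46, against 0.44 on deposited TPM. Of the other results that answer a comparison, 95 alternatives kept direction and side, the rRNA difference and the partner lists among them. Among single genes 203 did so and 24 levels moved. Both counts of kept results include levels with 1 library left out, which could not count as moved. With 2 libraries that shift is always smaller than their SD, so these entries show nothing about stability. Leaving out each library gave 2096 to 2812 TPM for the median message, 225 to 1773 TPM for the rRNAs, 8.49% to 12.2% of TPM, 1.68% to 2.36% of counts, and 14.7 to 17.4 for mt-Atp8 over its full-length TPM. Alternatives on mm9 RPKM and tRNA differences gave no value, since all were listed at 0. Depth did not limit the messages or rRNAs, which had 2046 counts or more. Fragment length limited mt-Atp8 and the tRNAs, and identical sequence mt-Atp6, mt-Co3, mt-Nd3 and mt-Nd4l, whose levels moved with copies added. The mt-Co1 level also moved, but there the copy's TPM rests on a much shorter length than that of the gene.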
